A study of Mus musculus with 8 samples.

Results

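The S100 proteins are small calcium-binding proteins, and 8 of their genes were followed here: S100a8, S100a9, S100a11, S100a6, S100a13, S100a10, S100a4 and S100a1. They were chosen by symbol. Each had 1 probe on the arrays, so 8 of 25697 probes and 8 of 16593 genes with a symbol were used. The arrays were Illumina MouseRef-8 v2 bead arrays, and the RNA was that of Gr1+ spleen cells, isolated by magnetic sorting and pooled over female C57BL/6 mice aged 6 to 8 weeks. The PBS group (2 arrays, PBS 1 and PBS 3) received PBS in place of both LPS and drug. The LPS group (3 arrays) received lipopolysaccharide, the endotoxin of Gram-negative bacteria, into the peritoneum and then PBS. The third group (3 arrays, LT in the sample titles) received LPS and, 30 min later, HY209 (sodium taurodeoxycholate, a bile salt) into the blood. No array came from mice given HY209 without LPS. Spleens were taken at 48 h in all groups, and the labels state that over 95% of the Gr1+ cells carried CD11b. Each array held the cells of many animals, given as 10 to 15 spleens in the extraction text and 30 to 40 in the design text, so the values are means over pools of mice and the p-values measure the spread between such samples.

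An S100 protein binds calcium through a pair of EF-hand loops, usually works as a dimer, and then docks onto a target protein. S100a8 and S100a9 pair to form calprotectin, which fills the cytosol of neutrophils and of some monocytes, withholds zinc and manganese from microbes, and acts as an alarm signal on the receptors Tlr4 and Ager (RAGE) once released. The others are found in many cell types, where they work with annexins, the cytoskeleton or secreted growth factors.

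All 8 genes lie on mouse chromosome 3 in GRCm38.p6, in the RefSeq order S100a1, S100a13, S100a4, S100a6, S100a8, S100a9, S100a11 and S100a10. The first 6 stand in a block with other S100 genes, and a long stretch of skin barrier genes separates them from S100a11 and S100a10. S100a1 and S100a13 are head to head. The 104 bases between their RefSeq starts are shown because these neighbours had fitted differences of opposite sign after LPS, and the upstream stretches of S100a8 and S100a9 because their products work as a pair. The S100a1 difference (log2 -0.16, 95% interval -0.39 to 0.07) did not pass the test described below, so its sign is not settled. The sequences are from RefSeq's GRCm38.p6 table, 5′ to 3′. Capitals mark letters of a searched motif.
Interval between S100a1 and S100a13, chr3:90514331-90514434, plus strand: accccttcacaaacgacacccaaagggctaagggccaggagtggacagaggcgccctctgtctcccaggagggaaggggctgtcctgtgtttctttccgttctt
S100a8, chr3:90668821-90669070, plus strand: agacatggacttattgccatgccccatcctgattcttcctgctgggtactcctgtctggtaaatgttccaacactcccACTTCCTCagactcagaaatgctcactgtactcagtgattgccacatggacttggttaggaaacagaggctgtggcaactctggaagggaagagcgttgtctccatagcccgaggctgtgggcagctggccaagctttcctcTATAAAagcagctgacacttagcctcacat
S100a9, chr3:90695722-90695971, minus strand: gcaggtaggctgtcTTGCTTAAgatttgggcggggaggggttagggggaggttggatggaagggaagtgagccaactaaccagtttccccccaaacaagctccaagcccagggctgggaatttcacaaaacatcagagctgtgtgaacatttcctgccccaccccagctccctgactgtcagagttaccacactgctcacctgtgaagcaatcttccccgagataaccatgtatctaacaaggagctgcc

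On both strands, 6 motifs were searched in the 250 bases before each start. They were C/EBP (TTGCNNAA), PU.1 (GAGGAAGT), the TATA box (TATAAA), STAT (TTCNNNGAA), AP-1 (TGANTCA) and the E-box (CACGTG), none of which overlapped another here. The S100a8 stretch held a PU.1 match at -172 to -165 and a TATA match at -30 to -25 from the start. The S100a9 stretch held a C/EBP match at -236 to -229. Of 32851 RefSeq promoters of that length, 2.44% held the PU.1 letters, 12.4% TATA and 9.56% C/EBP. S100a4 also held TATA, and S100a11 held AP-1 (6.75% of promoters) in 2 places and the E-box (6.02%). The STAT letters (7.02%) were in none of the 7 matched members, and the interval between S100a1 and S100a13 held 0 of the 6 motifs. S100a10 had no entry in the table.

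The probes lay at very different heights of the intensity scale, which runs from 108.9 to 66399 on every array, with background up to 168. All 8 probes were above background on all 8 arrays. Those of S100a8, S100a11 and S100a9 stood near the top, here meaning at least 50% of the highest intensity of an array, a range held by 86 probes on each array. The S100a6 probe reached 6.77% to 7.77% of the highest value in PBS, and S100a13, S100a10, S100a4 and S100a1 lay lower. A brighter probe does not show a more abundant transcript, since probes differ in their response. In what follows intensities are the deposited values with their SD over arrays. Log2 changes and folds come after background correction and are given with the standard error of the limma fit over 10279 genes, n being 2 for PBS and 3 for each other group.

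**Figure D1:**
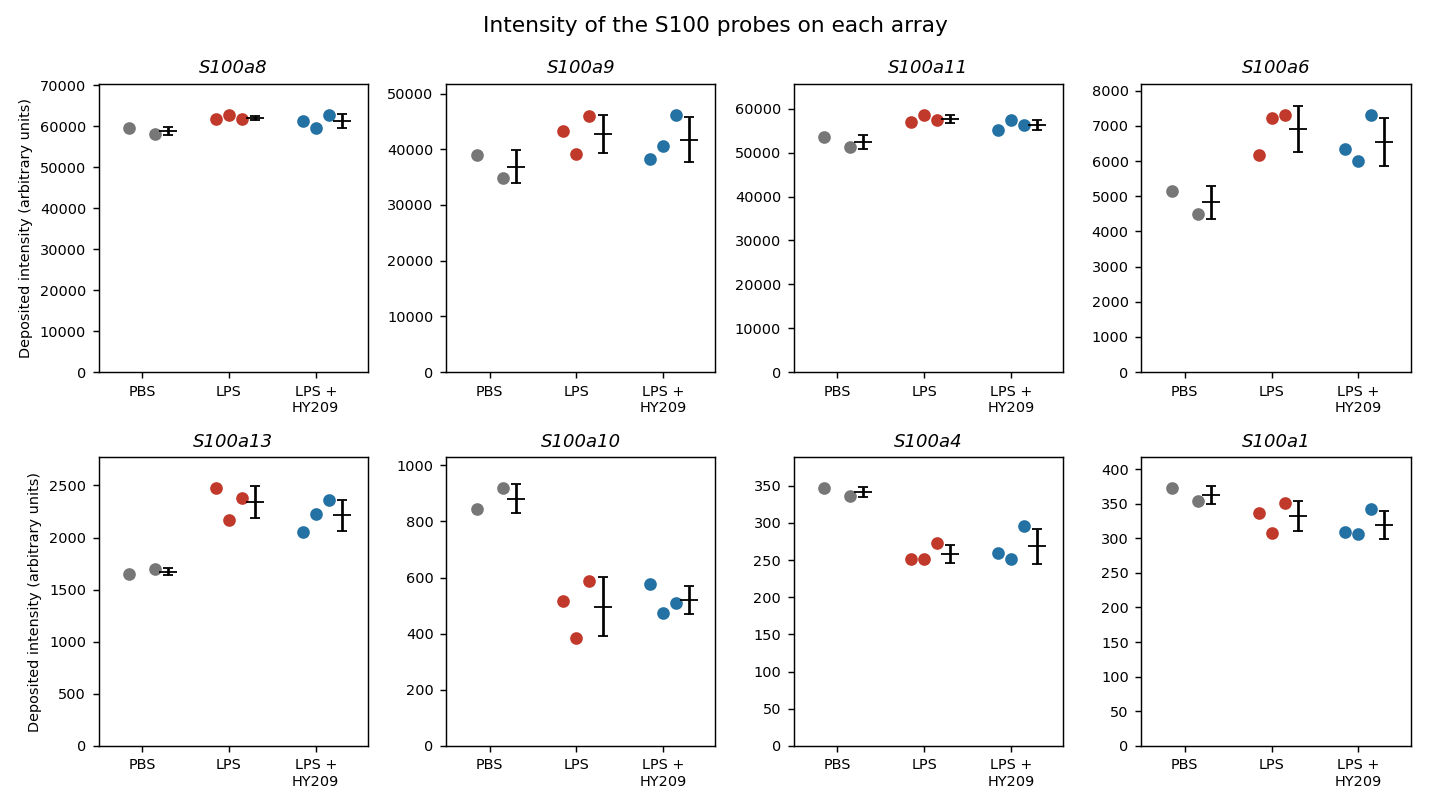
Deposited intensity (y axis, linear, from 0, its own scale in each panel) of the 8 S100 probes in the PBS, LPS and LPS with HY209 groups (x axis). Points are arrays, and black marks are the group mean with its SD. S100a6 and S100a13 lie higher and S100a10 and S100a4 lower in both LPS groups than in PBS.

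The first comparison, LPS against PBS, asks how the endotoxin changed these transcripts in the sorted fraction. The S100 genes did not move together. S100a6 and S100a13 rose about equally, by 1.44-fold and 1.41-fold, S100a10 fell 1.94-fold and S100a4 fell 1.44-fold. The calprotectin pair S100a8 and S100a9, S100a11 and S100a1 did not pass the test. By limma with Benjamini-Hochberg adjustment at 0.05, 4 of 8 members passed, 2 in each direction, against 55.5% of all genes tested (25.6% higher and 30.0% lower). That share of members is near the background. The median log2 change was 0.11 over the members and 0.00 over all genes. PBS and LPS intensities were fully apart for 8 of 8 members, against 71.0% of all genes.

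S100a8 encodes the smaller calprotectin subunit. Its intensities were 59488 and 58140 in PBS, 61714, 62583 and 61714 after LPS, and 61338, 59488 and 62809 after LPS with HY209. All 3 LPS arrays exceeded both PBS arrays, but by little, and the second HY209 array had the same value as PBS 1. The log2 change after LPS was 0.08 ± 0.08 (95% interval -0.11 to 0.26, adjusted p = 0.47).

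S100a9 encodes the other calprotectin subunit. Its intensities were 38998 and 34768 in PBS, 43223, 39153 and 45965 after LPS, and 38280, 40676 and 46238 after LPS with HY209. The LPS arrays lay above PBS by a margin as small as that between LPS 2 and PBS 1, and the HY209 arrays overlapped both groups. The log2 change after LPS was 0.21 ± 0.11 (95% interval -0.03 to 0.46, adjusted p = 0.13).

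S100a11, known for binding annexin A1 at membranes, stood at 53556 and 51246 in PBS and at 57086, 58693 and 57375 after LPS. With HY209 it stood at 55280, 57375 and 56289. Every array of both LPS groups lay above both PBS arrays. The log2 change of 0.14 ± 0.08 after LPS did not pass the test (95% interval -0.04 to 0.32, adjusted p = 0.18).

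For S100a8 and S100a11 the scale left little room upward, and for S100a9 it left more. The highest value of the arrays lay 0.18 above the mean PBS level of S100a8 on the log2 scale, 0.34 above S100a11 and 0.85 above S100a9, and a rise beyond that room could not have been recorded. Ranks show the same narrow range, since the S100a8 probe was number 20 and 23 on the PBS arrays, 12 to 15 on the LPS arrays and 11 to 20 on the HY209 arrays. Because the authors quantile normalized the arrays, probes of equal rank carry equal intensity, which is why LPS 1 and LPS 3 both show 61714. Of 68 genes whose PBS mean was near the top, 12 rose and 30 fell after LPS, beside 25.6% higher and 30.0% lower among all genes tested. Their largest rise was that of Hdc (0.68). Choosing genes by a high PBS level itself favours falls over rises, so these counts do not measure the effect of the room. Among genes near the top by their mean over all arrays, Gbp2 rose by 2.27. Large falls were still recorded, as for Axl (-3.22 ± 0.09), whose PBS mean of 46528 lay below that of S100a8. Whether such falls were recorded in full was not tested. The intervals of S100a8 (up to 0.26) and S100a11 (up to 0.32) reach past or close to their room, so they do not limit a rise. That of S100a9 (up to 0.46) ends inside its room of 0.85. A change measured near the top can be compressed in either direction, so the intervals of these 3 genes describe the recorded change only.

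**Figure D2:**
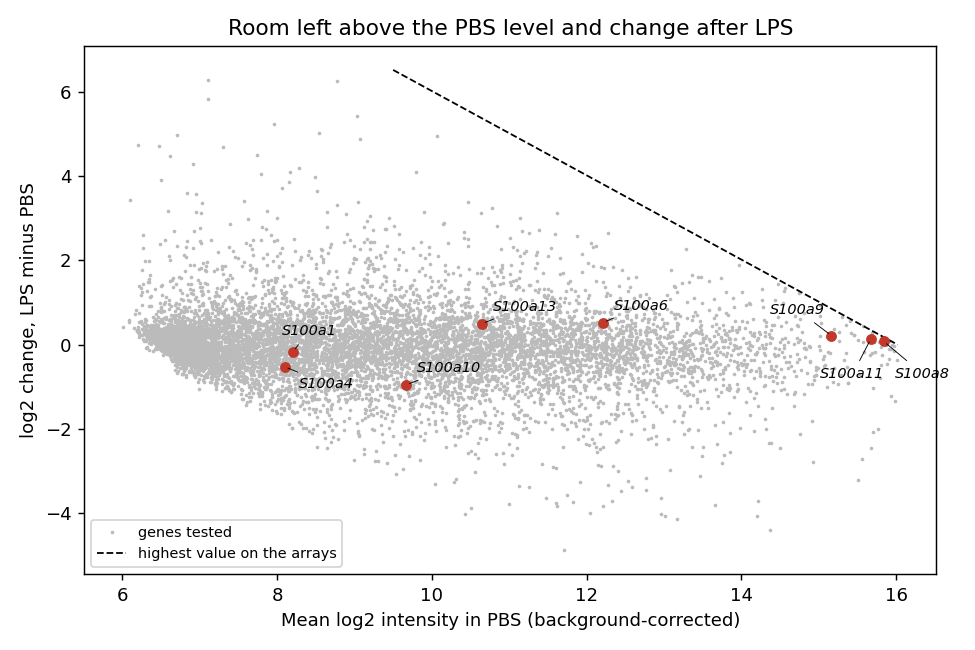
Log2 change of LPS minus PBS (y axis) against mean background-corrected log2 intensity in PBS (x axis) for 10279 genes (grey) and the 8 S100 genes (red). The dashed line marks the change that would bring a gene to the highest value of the arrays, and S100a8, S100a11 and S100a9 lie at 0.18, 0.34 and 0.85 log2 units of room.

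S100a6, or calcyclin, a partner of several annexins and of the ubiquitin ligase adaptor Cacybp, had intensities of 5157 and 4495 in PBS. They were 6162, 7237 and 7325 after LPS and 6353, 5992 and 7318 after LPS with HY209. Every LPS and HY209 array lay above both PBS arrays, and the LPS and HY209 groups overlapped. The mean went from 4826 ± 468 to 6908 ± 647, a log2 change of 0.52 ± 0.12 (adjusted p = 0.0026).

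S100a13 takes part in the release of Fgf1 and Il1a, proteins without a secretion signal. It stood at 1647 and 1699 in PBS and at 2473, 2171 and 2382 after LPS. With HY209 it stood at 2056, 2224 and 2357, again above PBS on every array. The mean went from 1673 ± 36.7 to 2342 ± 155, a log2 change of 0.50 ± 0.10 (adjusted p = 0.00096). Its head-to-head neighbour S100a1 did not pass the test.

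S100a10, also called p11, has lost calcium binding, pairs with annexin A2 and docks plasminogen at the cell surface. Its intensities were 843.9 and 918.3 in PBS, 515.3, 382.6 and 589.2 after LPS, and 575.3, 475.2 and 508.2 after LPS with HY209. All arrays of both LPS groups lay below both PBS arrays, and LPS 2 was the lowest of the 8. The mean went from 881 ± 52.6 to 496 ± 105, a log2 change of -0.96 ± 0.18 (adjusted p = 0.00058), with the widest spread of any member after LPS (a range of 0.73 on the log2 scale, against 0.02 to 0.25 for the others).

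S100a4, or metastasin, binds the heavy chain of non-muscle myosin and is known from motile cells, fibroblasts and T cells. It stood at 346.7 and 336.5 in PBS, at 251.8, 251.3 and 272.7 after LPS and at 259.1, 251.6 and 295.5 after LPS with HY209. The PBS arrays were the highest of the 8. The log2 change after LPS was -0.52 ± 0.11 (adjusted p = 0.0014).

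S100a1, known mainly from heart and skeletal muscle as a regulator of calcium release channels, stood at 372.2 and 353.4 in PBS. It was at 336.4, 308.2 and 350.5 after LPS and at 309.7, 305.7 and 342.7 after LPS with HY209. PBS was higher than every other array, by little in the closest pair, PBS 3 and LPS 3. The log2 change of -0.16 ± 0.10 after LPS did not pass the test (95% interval -0.39 to 0.07, adjusted p = 0.21).

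Markers of other cell types moved in the same arrays. Their counts after LPS stand beside 25.6% higher and 30.0% lower among all genes tested. Counts are of tested genes, while sums take in all listed genes on the array, also those too dim to be tested. The genes summed numbered 8 for B cells, 8 for T and NK cells, 7 for dendritic cells and 6 for monocytes. Of 10 tested macrophage markers 9 fell and 0 rose after LPS. The summed intensity of the 11 on the array was 194216 to 199254 in PBS. It was 47202 to 49962 in LPS and 35530 to 39562 with HY209. Of 7 B cell markers 7 fell (65018 to 66430, then 11955 to 12631, then 18375 to 20160 with HY209), and of 5 T and NK cell markers 5 fell (38502 to 40042, then 11542 to 12111, then 11661 to 15460). Of 8 endothelial markers 7 fell (7832 to 8734, then 2147 to 2180, then 3246 to 4927), of 6 erythroid markers 6 fell (81308 to 82831, then 26327 to 29437, then 46439 to 58428), and of 4 dendritic cell markers 4 fell (3210 to 3264, then 1530 to 1567, then 1588 to 1839). Of 6 platelet markers 4 fell (2005 to 2149, then 1358 to 1436, then 2076 to 2222). The neutrophil list had 11 higher and 2 lower of 15, with sums of 238065 to 238952 in PBS, 297264 to 310514 in LPS and 292767 to 300534 with HY209. The largest parts of that sum in PBS were Ltf (64580), Lcn2 (48941) and Retnlg (41815). These probes lay near the top of the scale, where a change can be compressed. Monocyte markers had 3 higher and 2 lower of 5 (23037 to 24633, then 54660 to 56963, then 53215 to 56368). Most of the rise in this sum was Cd14, which went from 5047 in PBS to 31441 in LPS. The 2 lower were Cx3cr1 (-3.26 ± 0.14) and F13a1 (-1.03 ± 0.14). Itgam, which encodes CD11b, went from 535 ± 42.0 to 2612 ± 415. Ly6g, a gene of the Gr1 antigen, was not analysed here, and the neutrophil marker Mmp8 was not above background in PBS. Among defining markers of other cells, Cd5l, Ccr2, Xcr1, Cd8a and Ncr1 were not above background in any group, Pax5 in PBS and LPS, Cd4 and Itgax in both LPS groups, Flt3 in PBS and LPS, Zbtb46, Cdh5 and Tek in LPS and Kdr in PBS. The part of such cells in the falls of S100a10 and S100a4, or in the rises of S100a6 and S100a13, was not tested, and in these bulk samples fewer cells of a type and less RNA per cell cannot be told apart.

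The second comparison, LPS with HY209 against LPS alone, asks what the bile salt added. No S100 gene passed the test, and the largest log2 change was 0.10. By limma, 0 of 8 members passed, with 0 at an unadjusted p under 0.05 (lowest unadjusted p = 0.36), against 9.51% of all genes tested (6.09% higher and 3.42% lower). The arrays of LPS and of LPS with HY209 overlapped for every member, against 29.1% of all genes without overlap. The median log2 change was -0.04 over the members and -0.01 over all genes.

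Each difference is given with its 95% interval. For S100a8 and S100a11, whose LPS arrays stood at 92.9% to 94.3% and 86.0% to 88.4% of the highest value, they do not limit a rise with HY209. S100a8 was at -0.02 ± 0.08 (-0.18 to 0.15), S100a9 at -0.04 ± 0.10 (-0.26 to 0.18) and S100a11 at -0.04 ± 0.08 (-0.20 to 0.13). The intensity means with HY209 were 61212 ± 1664 for S100a8, 41731 ± 4082 for S100a9 and 56315 ± 1048 for S100a11. The members that had risen after LPS were at -0.08 ± 0.11 (S100a6, -0.31 to 0.16) and -0.08 ± 0.09 (S100a13, -0.28 to 0.11). Those that had fallen were at 0.10 ± 0.16 (S100a10, -0.24 to 0.45) and 0.07 ± 0.10 (S100a4, -0.14 to 0.28). S100a1 was at -0.07 ± 0.09 (-0.27 to 0.14). Since LPS arrays serve in both comparisons, the signs opposite to those after LPS, seen for every member but S100a1, are not separate observations.

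The third comparison, LPS with HY209 against PBS, gives the state of the treated septic mice relative to the controls. The same 4 members passed as after LPS alone and in the same directions, with the PBS arrays shared between both comparisons. S100a6 rose 1.36-fold (0.45 ± 0.12, adjusted p = 0.0086) and S100a13 rose 1.33-fold (0.42 ± 0.10, adjusted p = 0.0041). S100a10 fell 1.81-fold (-0.85 ± 0.18, adjusted p = 0.0017) and S100a4 fell 1.37-fold (-0.45 ± 0.11, adjusted p = 0.0045). The share of members called, 4 of 8, is close to the 47.4% of all genes (21.5% higher and 25.9% lower). Without PBS 3 the call of S100a6 was lost (0.34, adjusted p = 0.11).

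The other members did not pass against PBS. S100a8 was at 0.06 ± 0.08 (adjusted p = 0.62), S100a9 at 0.18 ± 0.11 (adjusted p = 0.22), S100a11 at 0.10 ± 0.08 (adjusted p = 0.34) and S100a1 at -0.23 ± 0.10 (adjusted p = 0.090). S100a1 came closest, with every HY209 array below both PBS arrays, and it passed without LT 3 (adjusted p = 0.045). The arrays did not overlap for 6 of 8 members, against 64.5% of all genes, S100a8 and S100a9 being the ones that overlapped.

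**Figure D3:**
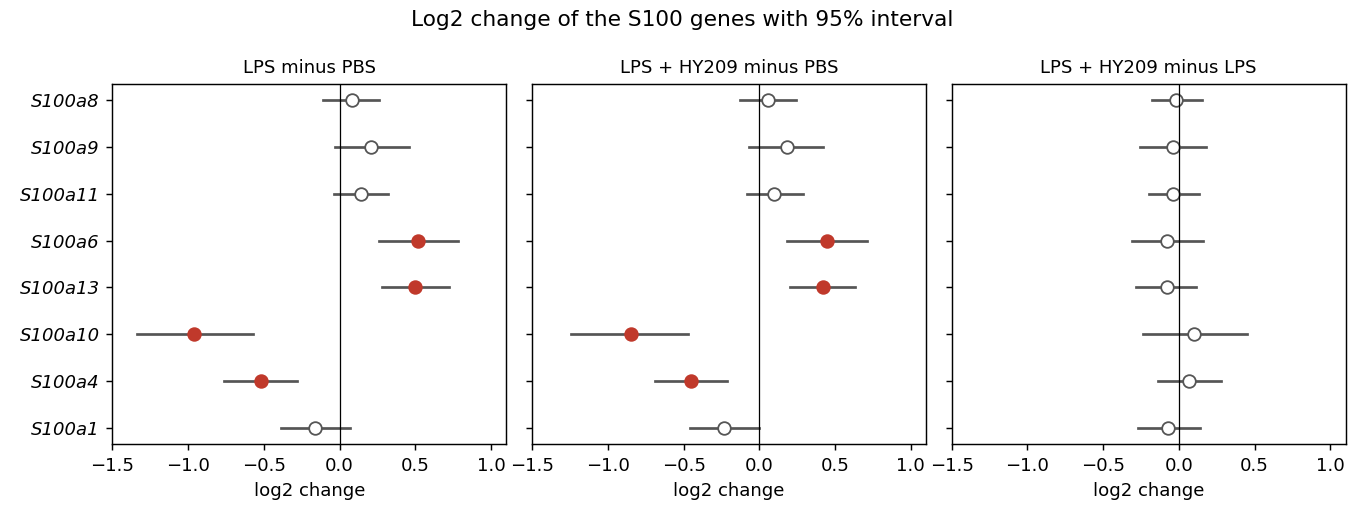
Log2 change (x axis) of the 8 S100 genes (y axis) in the 3 comparisons, with lines for the 95% interval of the limma fit. Filled points passed the test. S100a6, S100a13, S100a10 and S100a4 are filled in both comparisons with PBS, and no point is filled for LPS with HY209 against LPS.

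The 8 members also varied within groups, and by amounts that differed from gene to gene. Over the 3 LPS arrays the log2 range was 0.02 for S100a8 and 0.04 for S100a11, 0.16 for S100a4 and 0.19 for S100a13, and 0.23 to 0.25 for S100a9, S100a1 and S100a6. LPS 3 had 6 of 8 members above its group's mean, LPS 1 had 4 and LPS 2 had 3. LT 3 had 6 above and LT 1 and LT 2 had 2 each, and PBS 1 had 6 above and PBS 3 had 2. Centring on means of 2 or 3 arrays ties the counts within a group to each other.

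Profiles over the 8 arrays, each centred on its own mean, were compared with those of all genes tested outside the S100 family. The nearest to S100a13 were Cdc23, Pop7 and Nhej1, at root mean square distances of 0.029, 0.040 and 0.047 on the log2 scale. Those nearest to S100a6 were Srpr (0.050), Scand1 (0.054) and Upf1 (0.069), and those nearest to S100a4 were Ccs (0.036), Acads (0.037) and Plekhg2 (0.057). S100a10 had looser neighbours, Zscan20 (0.116), Il18r1 (0.127) and Pole4 (0.144). S100a8 was nearest to Diablo (0.015), Pip4k2c (0.025) and Actb (0.026), and S100a11 to Pip4k2c (0.028), Ubb-ps (0.030) and Actb (0.030). Actb, the beta-actin gene, is itself among the brightest probes of these arrays. S100a9 was nearest to Psmd13 (0.045), Dis3l2 (0.047) and G6pc (0.050), and S100a1 to Rbfa (0.037), Trpt1 (0.045) and Pold4 (0.048).

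A further 10 genes of the family or its relatives had probes. S100a7a, S100b, S100g, Hrnr and Rptn were above background on no array. S100a3 exceeded it on 1 of 2 PBS arrays and on no other, and S100a5 on 1 HY209 array. S100a14 and S100a16 were dim but above background on every array, at 191 ± 5.34 and 193 ± 4.54 in PBS and 195 ± 6.29 and 208 ± 4.31 after LPS. Neither passed the test (0.04 ± 0.09, adjusted p = 0.73, and 0.16 ± 0.09, adjusted p = 0.18). S100pbp, which encodes a binding protein of S100 proteins rather than an S100 protein, was at 261.0 and 270.9 in PBS, at 446.6, 400.7 and 477.1 after LPS and at 381.2, 353.3 and 368.1 with HY209. The 3 groups did not overlap, and S100pbp rose after LPS (0.91 ± 0.10, adjusted p = 1.2e-05). The difference between HY209 and LPS was -0.31 ± 0.09 (adjusted p = 0.057) and passed without LPS 2 (adjusted p = 0.034). Its second probe also rose after LPS.

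Of 13 tested receptors and adaptors listed for extracellular S100 proteins, 8 rose and 2 fell (median log2 change 0.45), beside 25.6% higher and 30.0% lower among all genes tested. Cd14, the LPS co-receptor, went from 5047 to 31441 (2.66 ± 0.09, adjusted p = 3.2e-10), and the sialic acid receptor Cd33 changed by 2.29 ± 0.10. The formyl peptide receptor Fpr2 changed by 1.43 ± 0.09 and Ager by 0.80 ± 0.13 (adjusted p = 0.00029). The LPS mean of Fpr2 was 61677, near the top of the scale, so its recorded rise can be compressed. Tlr4, the signalling receptor of calprotectin, changed by 0.63 ± 0.10 and its partner Ly96 by 0.66 ± 0.11. The falls were Alcam (-0.50 ± 0.15), an adhesion molecule, and Il10ra (-0.32 ± 0.11), a chain of the interleukin-10 receptor. Alcam lost its call without PBS 3 or LPS 3, and Il10ra without PBS 1, LPS 1 or LPS 3. With HY209 against LPS, 1 of 13 rose and 1 fell, beside 6.09% higher and 3.42% lower among all genes tested. Cd69 rose (0.32 ± 0.09, adjusted p = 0.039) and Ager fell (-0.51 ± 0.12, adjusted p = 0.022). For Ager, 1 of 2 probes passed. Leaving out any of 4 arrays ended its call (LT 1, LT 2, LPS 1 or LPS 3), and that of Cd69 ended without any array but LT 3.

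Intracellular partners went in both directions, with 14 higher and 7 lower of 28 after LPS (25.6% and 30.0% of all genes) and a median of 0.29. The 7 lower include Ahnak. The largest changes were those of Il1a (2.27 ± 0.20), Ahnak (-1.91 ± 0.11), and the oxidase subunits Ncf1 (1.61 ± 0.12) and Ncf4 (1.51 ± 0.09). The 2 kept probes of Ahnak, a scaffold that S100a10 binds, passed the test in opposite directions, so that gene has no settled change. The partners of each member, chosen for naming after their values were seen, can be set beside it. For S100a8 and S100a9, which feed the phagocyte oxidase, Cyba (0.60 ± 0.08) and Rac2 (0.64 ± 0.10) rose beside Ncf1 and Ncf4. The LPS means of Cyba (42107) and Ncf4 (34861) lay near the top, where a change can be compressed. Annexin A1 (Anxa1, 1.5 ± 0.11), the partner of S100a11, rose while S100a11 stayed near the top of the scale. Of the annexins listed as partners beside these, Anxa11 (1.16 ± 0.09), bound by S100a6, Anxa3 (0.70 ± 0.13) and Anxa4 (0.43 ± 0.11) rose, and Anxa5 (-0.91 ± 0.10) and Anxa6 (-0.79 ± 0.12) fell. Annexin A2 (Anxa2), the partner of S100a10, went the other way from it (0.23 ± 0.09, adjusted p = 0.048), at 44862 in PBS and 52784 after LPS, a call that ended without PBS 1, PBS 3, LPS 2 or LPS 3. Both Anxa2 means lay near the top, so the size of its change can be compressed. Myh9, the myosin that S100a4 binds, was at -0.01 ± 0.10 (adjusted p = 0.95). The other non-muscle myosin on the list, Myh10, fell (-0.67 ± 0.13, adjusted p = 0.00074), but its LPS mean of 158 was below the background bound of 168. Tpm1, also on the list, fell after LPS (-1.16 ± 0.11, adjusted p = 3.4e-06). Of the S100a13 partners, Il1a rose and Fgf1 was at -0.13 ± 0.08 (adjusted p = 0.23). With HY209 against LPS 2 of the 28 partners rose, Tpm1 (0.47 ± 0.10) and Tubb5 (0.35 ± 0.09), and 1 fell, Fgf1 (-0.39 ± 0.08, adjusted p = 0.0096). Among all genes tested 6.09% were higher and 3.42% lower in that comparison. Tpm1 lost its call without LT 1, LPS 1 or LPS 2, and Tubb5, of which 1 of 2 probes passed, without any array but LT 2.

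Of 14 transcription factors listed for S100a8 and S100a9, 9 rose and 1 fell after LPS, with a median of 0.55, against 25.6% higher and 30.0% lower among all genes. Klf5 changed by 2.63 ± 0.10, Irf7 by 2.19 ± 0.10, the myeloid factor Spi1 (PU.1) by 2.05 ± 0.15 and the granulocyte factor Cebpe by 1.5 ± 0.11. Cebpb, a C/EBP factor of emergency granulopoiesis, went from 24088 to 58352 (1.28 ± 0.09), and the fall was Atf3 (-0.90 ± 0.12). The LPS mean of Cebpb lay near the top, so its recorded rise can be compressed. With HY209 against LPS, beside 6.09% of all genes tested higher and 3.42% lower, 0 of 14 rose and 2 fell. These were Fos, from 10309 to 2464 (-2.10 ± 0.09, adjusted p = 3.7e-07), and Junb (-0.48 ± 0.10, adjusted p = 0.016, lost without LPS 3).

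Other lists hold genes of like function. Of 13 metal-binding and other abundant neutrophil products 11 rose and 1 fell after LPS, with a median of 0.94, beside 25.6% higher and 30.0% lower among all genes. The risers included the stefins Stfa2, whose PBS mean of 166 was at background so that its fitted change of 4.49 ± 0.13 has no settled size, and Stfa1 (2.83 ± 0.14), Wfdc21 (2.31 ± 0.09) and the granule protein Ngp (1.5 ± 0.15), and the fall was the antimicrobial peptide gene Camp (-0.29 ± 0.11, lost without PBS 1, PBS 3, LPS 1 or LPS 2). Lcn2, which withholds iron as calprotectin does zinc, rose from 48941 to 65991 (0.43 ± 0.09), close to the highest value, which it held on all 3 HY209 arrays. In this list Wfdc21 was the 1 gene of 13 that passed with HY209 against LPS (-0.40 ± 0.08, adjusted p = 0.013), beside 9.51% of all genes tested. Of 17 other calcium-binding or calcium-signalling genes, most of them with EF hands, 8 rose and 7 fell after LPS (55.5% of all genes passed), with a median of -0.17. The calpain Capn2 changed by -0.97 ± 0.19, Calr by -0.90 ± 0.23 (lost without PBS 1), and Chp1 and Pef1 by 0.85 ± 0.15 and 0.85 ± 0.10. None of the 17 passed with HY209 against LPS, beside 9.51% of all genes tested. With HY209 against PBS, where 21.5% of all genes were higher and 25.9% lower, 7 receptors and adaptors rose and 1 fell, 13 partners rose and 7 fell, 7 transcription factors rose and 2 fell, 11 neutrophil products rose and 2 fell, and 7 calcium-binding genes rose and 5 fell.

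**Figure D4:**
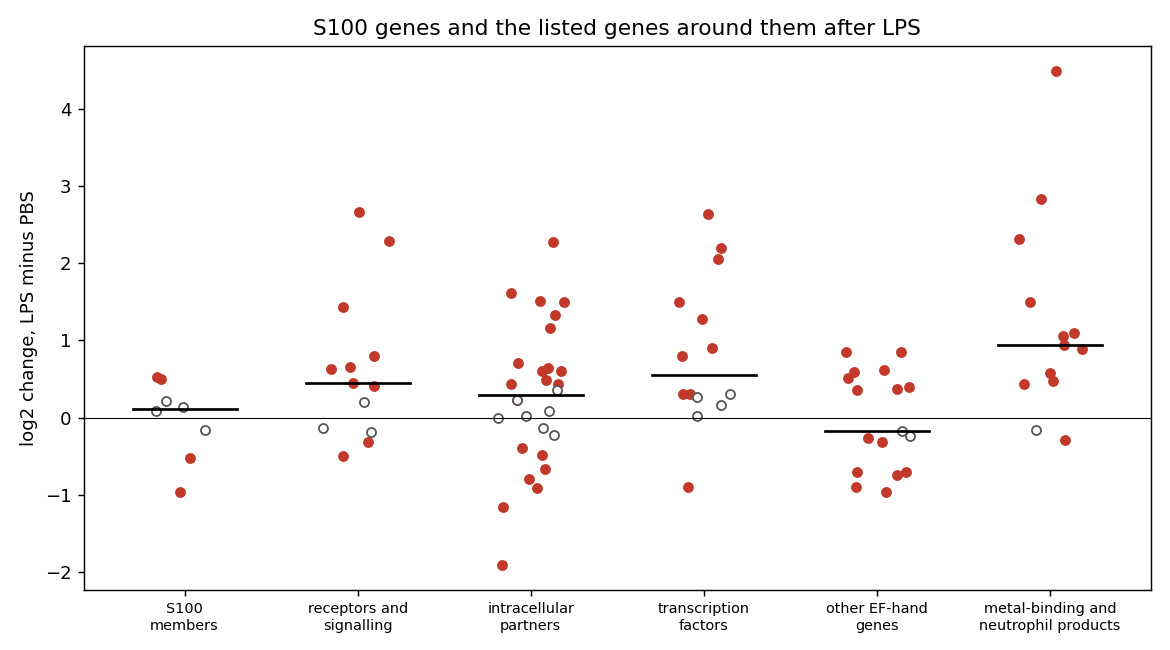
Log2 change of LPS minus PBS (y axis) for the 8 S100 genes and the tested genes of 5 lists (x axis, points spread sideways for visibility). Filled points passed the test, open points did not, and bars are medians, from -0.17 for the EF-hand list to 0.94 for the metal-binding and neutrophil products.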

How the data were processed

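For 8 arrays the authors deposited linear intensity, already quantile normalized, since the sorted values are equal between arrays. GenomeStudio 2011.1 and R 2.15.0 are named in the submitters' processing notes, and filters are not given in the sources used here. A second table was not used, because its 16 value columns match no sample label. From the deposited intensity, background was corrected with normexp (offset 50), followed by quantile normalization and log2 in limma 3.58.1 (R 4.3.3). The background mode was 148 with a log2 spread of 0.11, so its upper 5% bound is 168. The share of probes above it was 50.9% on each array, which is the depth of an array, and the number of arrays limits the precision. Probes above it on at least 2 arrays were kept (14831), with the brightest probe per gene (10279 genes). Symbols came from the platform annotation (23978 probes with 1 symbol, 1719 with none). Group means were estimated over all arrays at once (lmFit and eBayes, two-sided, 5 residual and 6.60 prior degrees of freedom), with Benjamini-Hochberg adjustment over all genes, in a script tested on simulated data. Members and lists were chosen with earlier results of these data known. Named list genes are up to 4 with the largest changes past the test, and all movers where 5 or fewer moved in a direction. Tlr4, Ly96, Cebpb and Lcn2 were added for their roles, and so were the partners set beside each member, after their values were seen.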

Additional observations from a re-analysis of the deposited data

How the results depend on the processing

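Results were recomputed without background correction, with a normexp offset of 16, with scaling to the 75th percentile, with dim probes kept or held to a higher bar (178), with all probes of a gene averaged, with only the arrays of both groups compared, with a replicate block, and without each array. For the members, 405 refitted values kept their direction or stayed without a call, and 3 changed side of the threshold. Against PBS with HY209, S100a1 passed with a replicate block by the numbers of the descriptions (-0.29, adjusted p = 0.021) and ranged from -0.297 to -0.186 with an array left out, while S100a6 ranged from 0.345 to 0.546 and lost its call without PBS 3. Genes higher with HY209 against LPS numbered 626, from 259 to 756 with an array left out, and those lower numbered 352, from 142 to 385 (259 and 146 without LT 1, 372 and 142 without LPS 1, 364 and 172 without LPS 3) and 232 with no filter, where more genes were tested. Whether the replicate numbers of the titles pair the arrays could not be decided from residuals of groups of 2 or 3 arrays. Of 7 same-numbered pairs, 2 had residual correlations above 0.1 (-0.19 to 0.29 over all pairs). They were LT 2 with LPS 2 (0.29) and LT 3 with LPS 3 (0.27), while LT 1 with LPS 1 was at 0.048. With the replicate block of the titles 756 genes were higher and 449 lower with HY209 against LPS, and no member changed its call. Room below the highest value was 0.18 log2 for S100a8, 0.34 for S100a11 and 0.85 for S100a9.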
